A study of Mus musculus with 8 samples.

Results

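mmu-miR-101a-3p and mmu-miR-101b-3p, written without the species prefix from here on, are near-identical microRNAs (miRNAs) of the mouse that are cut from hairpins on different chromosomes. miRNAs are short RNAs that guide the repression of messenger RNAs. The pair was chosen by measured values, since the age difference of its members in these libraries was already known, so that difference is described here and not tested. The members are 2 of the 1978 mature miRNAs in the deposited table, each with 1 precursor entry, and both are among the 375 with enough counts for a test. Small RNA was sequenced from CD8+ T cells, which kill infected cells, after magnetic bead enrichment from the spleens of C57BL/6 mice, an inbred strain. Such enrichment leaves some other cells. The neonatal libraries (n = 4) came from mice 5 to 7 days old and the adult libraries (n = 4) from mice 12 weeks old, and the labels name no treatment or altered gene in either group. Whether each library is 1 animal, a pool or a repeat of another is not stated, so the p-values reflect the variation among these libraries alone, and part of it may be technical.

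A miRNA finds its targets mainly through its seed, bases 2 to 8 from its 5′ end, which pairs with sites in messenger RNAs. miR-101 is best known for repressing Ezh2, the histone methyltransferase of the Polycomb complex that silences genes. In T cells it is also known for acting on the messenger RNA of the costimulatory receptor Icos together with the protein Roquin. No messenger RNA was measured in these libraries.

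The mature sequences below, from RefSeq on GRCm38.p6, show how alike the members are; capitals mark the seed.
miR-101a-3p: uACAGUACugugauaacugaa
miR-101b-3p: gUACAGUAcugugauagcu
miR-144-3p: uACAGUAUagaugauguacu

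miR-101b-3p starts 1 base earlier than miR-101a-3p, at a G. Over the 18 bases that align, 17 were identical, and the remaining one was the substitution A16G, with positions counted from 1 at the 5′ end of miR-101a-3p. The earlier start moves the seed by 1 base, so the annotated seeds are ACAGUAC for miR-101a-3p and UACAGUA for miR-101b-3p and share the 6 bases ACAGUA. Of the 1679 miRNAs of the table with a RefSeq sequence, 1 had each of these seeds, namely the member itself. miR-144-3p, a red cell miRNA, was the one other miRNA whose seed held the 6 shared bases, and it had 1 to 9 counts in any library. The table does not give the 5′ ends of the reads, so how often a read of either hairpin began at another base is not known from it.

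The hairpins, also from RefSeq and written 5′ to 3′ on the strand of the gene, show where the 5p and 3p products lie, in capitals.
Mir101a: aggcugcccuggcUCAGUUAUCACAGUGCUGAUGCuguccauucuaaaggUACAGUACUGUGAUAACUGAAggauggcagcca
Mir101b: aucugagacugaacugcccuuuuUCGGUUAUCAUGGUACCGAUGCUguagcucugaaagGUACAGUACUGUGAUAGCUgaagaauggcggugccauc

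The Mir101a hairpin lies at chr4:101346945-101347027 on the minus strand (mm10, the same assembly as GRCm38), in an exon of the long noncoding gene E130102H24Rik. The Mir101b hairpin lies at chr19:29135279-29135375 on the plus strand, in an intron of Rcl1, a protein-coding gene with a role in ribosomal RNA processing. GENCODE M21 has no other miRNA gene within 50000 bases of either, so neither belongs to a miRNA cluster at that distance.

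Total counts were 1281032 to 2606630 per library, and 608 to 787 miRNAs had a count. Levels are given as CPM, the usual per-million scaling of counts, corrected with TMM factors (a trimmed mean of the ratios between libraries). These were 1.16 to 1.3 for the neonatal group and 0.788 to 0.812 for the adult group. A log2 fold change below 0 means a lower neonatal level, and each comes from edgeR's fit of all tested miRNAs. In that fit 237 of 375 miRNAs (63.2%) passed a Benjamini-Hochberg adjusted p under 0.05, 128 of them lower (34.1%) and 109 higher (29.1%) in neonatal libraries, and the groups did not overlap for 57.3% of all tested. Of the passing miRNAs 46.0% were higher with TMM scaling and 73.2% with scaling by library totals, which moved the median fold change by 0.63.

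miR-101a-3p was far lower in neonatal than in adult cells, while miR-101b-3p was about as abundant as miR-101a-3p in adult cells and differed much less with age. miR-101a-3p stood at 379, 575, 503 and 971 CPM in the neonatal libraries, taken from number 1 to 4. The adult ones, in the same order, stood at 4865, 7339, 6658 and 8984 CPM. The highest neonatal library lay far below the lowest adult one, and neonatal library 4 stood above the other 3 of its group. The neonatal mean was 607.0 ± 256 CPM and the adult mean 6962 ± 1705 CPM (SD, n = 4 each), an 11.5-fold lower neonatal level. The fitted log2 fold change was -3.52 ± 0.29 (SE). In such bulk libraries fewer cells with a miRNA and less of it per cell cannot be told apart.

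miR-101b-3p stood at 2513, 3182, 2781 and 4942 CPM in neonatal libraries 1 to 4. It stood at 4535, 8068, 5544 and 8082 CPM in adult libraries 1 to 4. Here the groups overlapped, since neonatal library 4 was above adult library 1, and the other 3 neonatal libraries were below all adult ones. The means were 3355 ± 1093 and 6557 ± 1800 CPM, a log2 fold change of -0.97 ± 0.24 (SE).

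**Figure D1:**
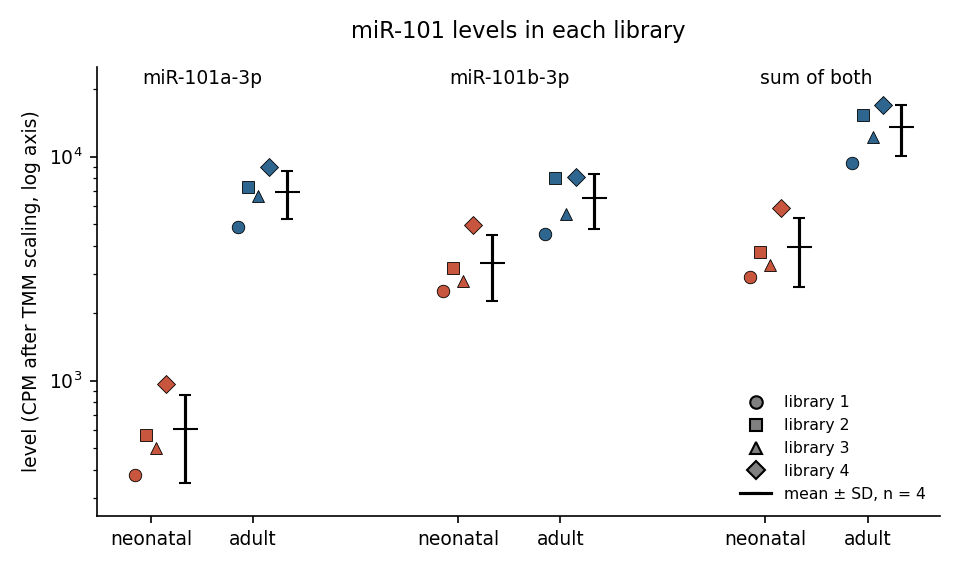
Level of miR-101a-3p, of miR-101b-3p and of their sum in CPM after TMM scaling (log axis), with a point for each library, its shape giving the library number, and mean ± SD (n = 4) in black. Neonatal miR-101a-3p sits between 379 and 971 CPM, below every adult library, while for miR-101b-3p the 4942 CPM of neonatal library 4 lies above the 4535 CPM of adult library 1.

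These sizes depended on the scaling. Library totals moved both members by about the same amount on the log2 scale, which is a larger part of the smaller miR-101b-3p difference. With library totals in place of TMM, miR-101a-3p was 7.51-fold lower in neonatal libraries, with a log2 fold change of -2.91 ± 0.26 (SE). miR-101b-3p was then 1.27-fold lower, at -0.35 ± 0.22. Both kept their direction in the 17 alternative fits, and the plot of settings gives each value.

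**Figure D2:**
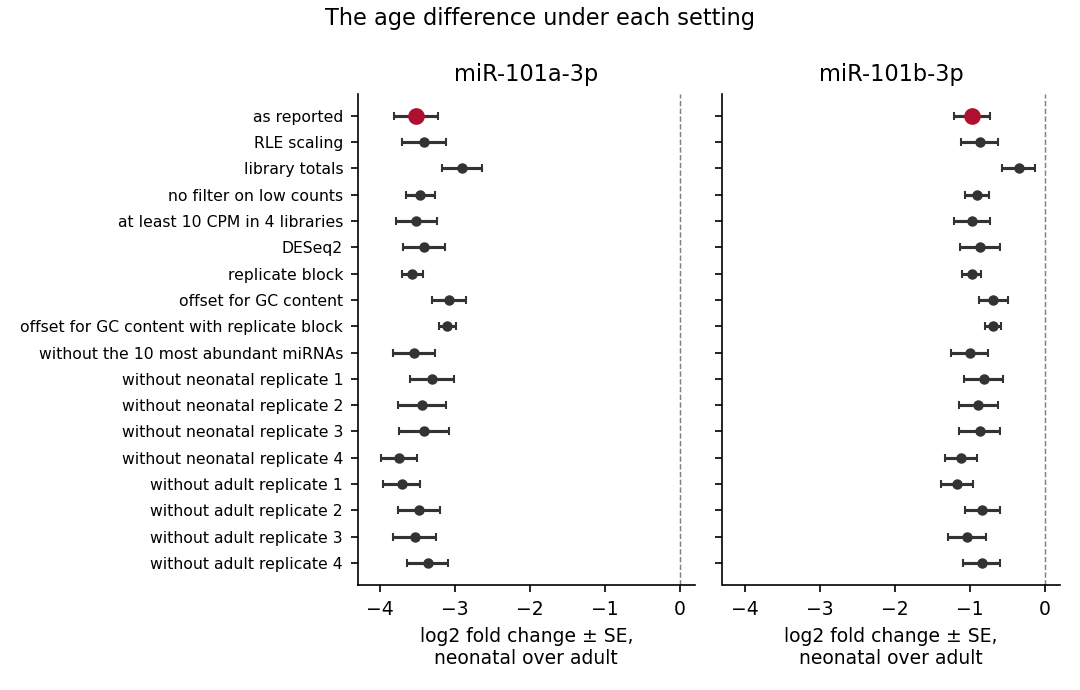
Fitted log2 fold change (neonatal over adult, x axis) with its SE for miR-101a-3p and miR-101b-3p under each setting (y axis), the reported one in red. All values lie below 0, from -3.75 to -2.91 for miR-101a-3p and from -1.17 to -0.35 for miR-101b-3p.

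The ratio of both miRNAs within a library does not depend on how libraries are scaled. miR-101a-3p had 0.151, 0.181, 0.181 and 0.197 counts for each count of miR-101b-3p in neonatal libraries 1 to 4. It had 1.07, 0.910, 1.20 and 1.11 in adult libraries 1 to 4. The neonatal ratios lay close together and far below the adult ones, which lay on both sides of equality. On the log2 scale, with 0.5 added to each count, the ratio was -2.50 ± 0.16 in neonatal and 0.10 ± 0.17 in adult libraries (SD, n = 4 each), a difference of -2.60. Leaving out any single library gave -2.68 to -2.52.

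**Figure D3:**
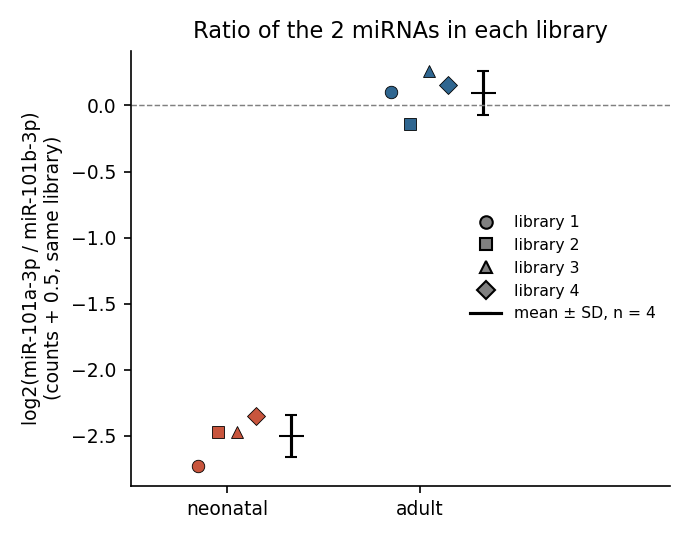
log2 ratio of the counts of miR-101a-3p and miR-101b-3p in the same library (y axis) by age group, with a point for each library and mean ± SD (n = 4) in black. The neonatal libraries lie between -2.73 and -2.35 and the adult libraries between -0.14 and 0.26.

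As a share of the counts of both members, miR-101a-3p made up 15.04% ± 1.39 in neonatal and 51.65% ± 2.92 in adult libraries (SD, n = 4). Their summed level was 3962 ± 1348 CPM in the neonatal group against 13519 ± 3408 CPM in the adult one, a 3.41-fold difference without overlap. They took 0.487% ± 0.137 of all neonatal and 1.09% ± 0.274 of all adult counts. Library kits of this kind ligate adapters with a preference for some ends, and the members differ at both ends, so the ratio within a library need not be the ratio in the cell, while its comparison between ages uses the same kit. The members also differ in GC content as annotated, 33.3% for the 21 bases of miR-101a-3p and 42.1% for the 19 bases of miR-101b-3p. These values depend in part on where the annotated sequences end. With an offset for GC content the difference between their fitted log2 fold changes was -2.40, against -2.55 without it.

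Reads of the members can be confused, because a read separates them only where it covers the base of the A16G substitution or the ends. Of their 16 deposited values, 6 ended in 0.5, which whole reads cannot give, and how many reads were divided between places is not known. miR-101c, annotated on chromosome 9, is identical to bases 2 to 20 of miR-101a-3p, so its reads cannot be told from shorter miR-101a-3p reads. It had 0 to 6 counts per library.

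The libraries of a group varied together in both members. Around the group mean of log2 CPM, library 1 was low at both ages, by -0.59 (neonatal) and -0.48 (adult) for miR-101a-3p and by -0.37 and -0.49 for miR-101b-3p. Library 4 was high at both ages, by 0.76 and 0.40 for miR-101a-3p and by 0.61 and 0.34 for miR-101b-3p. These deviations correlated between the members at r = 0.941 over the 8 libraries, where both values of a library share its depth and scaling factor. The largest deviation of the log2 ratio was -0.23, in adult library 2, against 0.76 for miR-101a-3p and 0.61 for miR-101b-3p, both in neonatal library 4. A fit that also blocked on library number gave log2 fold changes of -3.57 ± 0.14 (SE) for miR-101a-3p and -0.97 ± 0.13 for miR-101b-3p. The labels do not say that libraries of the same number are pairs, so the SEs of that fit rest on an assumption.

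The 5p strands, the partners of the members in the hairpin, were nearly absent. miR-101a-5p had a single count in the neonatal group, in library 3, while adult library 1 had none and the other adult libraries had 2 each. miR-101b-5p had 1 count, in adult library 1, and none elsewhere. Nearly all counts of both hairpins thus came from the 3p strand in every library. The highest share of 5p was 0.0866% for Mir101a (neonatal library 3, 95% exact Clopper-Pearson interval 0.00219% to 0.481%) and 0.0214% for Mir101b (adult library 1, 0.000542% to 0.119%). Where 5p had no count, the limit that a count of 0 allows (3 counts) was a share of 0.0599% to 0.422% for Mir101a and of 0.0186% to 0.0637% for Mir101b. Such intervals cover counting error only. An age difference in either 5p strand was not detectable at this depth, and no fold change is given for them.

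In the order of log2 fold changes from the lowest, miR-101a-3p was 3 of 375 and miR-101b-3p was 86 of 375. Among the 159 miRNAs with at least 100 CPM on average, they were 2 and 46. The places next to miR-101a-3p were held by miR-29c-3p (-3.90 ± 0.33 SE) and miR-29b-3p (-3.64 ± 0.25) below it and by miR-29a-3p (-3.42 ± 0.26), then miR-125a-5p (-3.36 ± 0.19) and, after a gap, miR-146a-5p (-2.86 ± 0.15) above it. The miR-29 family is known to restrain interferon-gamma, and miR-146a to damp NF-kB signalling. All 5 passed edgeR's test, at adjusted p of 1.61e-08 for miR-146a-5p to 6.98e-07 for miR-29c-3p, beside 63.2% of all tested miRNAs. They were named by their fold change in the same fit, so their passing is no separate evidence. Their standard errors overlapped that of miR-101a-3p, with miR-146a-5p as the exception, so the order among them is not fixed by these libraries.

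Next to miR-101b-3p stood miR-222-3p (-1.01 ± 0.17), miR-140-5p (-1.01 ± 0.25) and miR-30d-5p (-0.998 ± 0.16) below it, and miR-467a-3p (-0.96 ± 0.20), miR-378a-3p (-0.96 ± 0.14) and miR-467d-3p (-0.95 ± 0.27) above it. All differ from miR-101b-3p by less than 1 SE. They passed edgeR's test, in the fit whose order named them, at adjusted p of 8.35e-05 for miR-378a-3p to 0.00747 for miR-467d-3p. With library totals miR-222-3p (-0.38), miR-140-5p (-0.39), miR-467a-3p (-0.34) and miR-467d-3p (-0.33) no longer passed, and miR-467d-3p also did not without a filter on low counts (adjusted p = 0.0569).

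**Figure D4:**
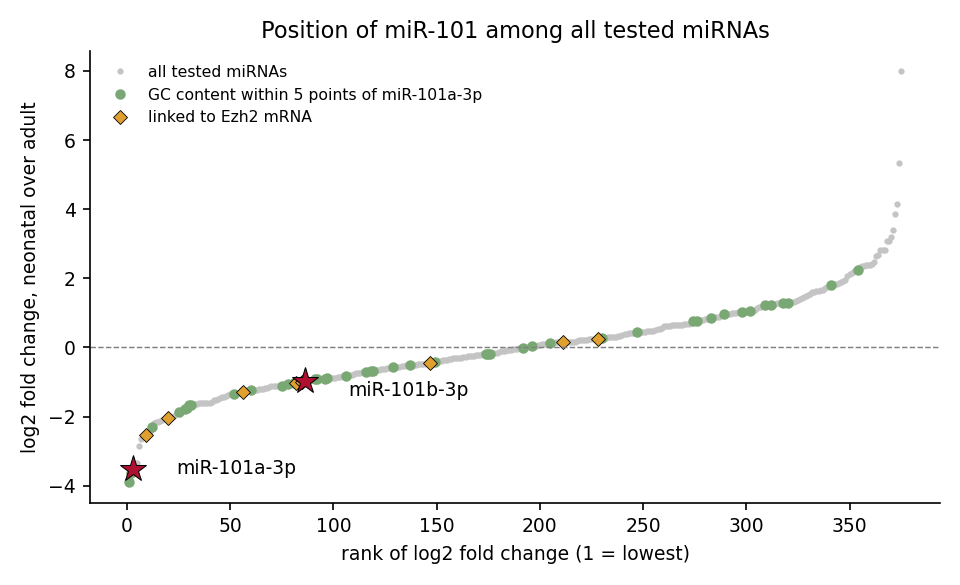
log2 fold change (neonatal over adult, y axis) of the 375 tested miRNAs in order (x axis), with the members as stars, miRNAs linked to Ezh2 as diamonds and miRNAs of GC content like that of miR-101a-3p in green. miR-101a-3p stands at rank 3 with -3.52 and miR-101b-3p at rank 86 with -0.97, and the green points run from -3.90 to 2.25.

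Other relatives also differed in how far they moved with age. Pairs were formed of tested miRNAs with the same number and strand but another letter, at least 100 CPM in either group, a RefSeq sequence and at least 15 identical aligned bases, a rule set after the members' values were seen. There were 49 such pairs in 15 families, 28 of them in the let-7 family, and pairs of a family share members. The median size of the change in log2 ratio was 0.67, and the groups did not overlap for 30 pairs. The change of -2.60 for miR-101a-3p over miR-101b-3p was the third in size, after miR-125a-5p over miR-125b-5p (-4.67) and let-7b-5p over let-7i-5p (-2.63). miR-200a-3p over miR-200c-3p (-2.52) and miR-146a-5p over miR-146b-5p (-2.22) followed.

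**Figure D5:**
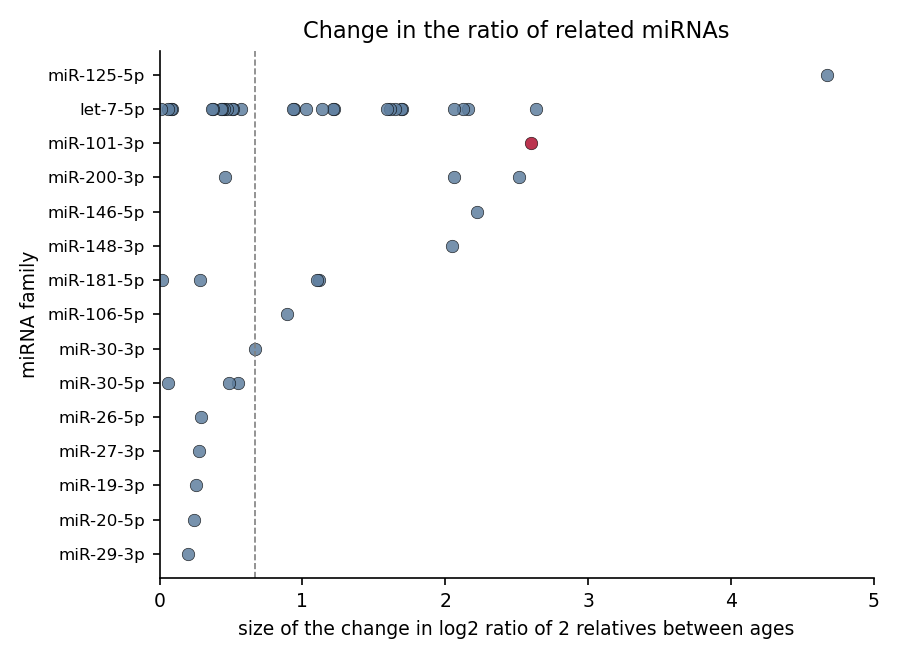
Size of the change in log2 ratio between ages (x axis) for each of the 49 pairs of related miRNAs, by family (y axis), with the miR-101 pair in red and the median of all pairs as a dashed line. The miR-101 pair, at 2.60, lies beyond the median of 0.67 and below the miR-125 pair at 4.67.

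Of 8 tested miRNAs other than miR-101 that are linked in the literature to Ezh2, 6 were lower in neonatal libraries, and none was higher, beside 34.1% lower and 29.1% higher among all tested. Their median log2 fold change was -1.01, against -0.05 for all tested miRNAs. The list was drawn up with results of these data known. miR-26a-5p, a well-known repressor of Ezh2, had 20138 ± 2203 CPM in neonatal against 40895 ± 5766 CPM in adult libraries (SD, n = 4 each). Its relative miR-26b-5p had 6480.2 ± 1303 against 15909 ± 2004 CPM. Their log2 fold changes were -1.02 ± 0.14 and -1.30 ± 0.16 (SE), with edgeR's adjusted p of 5.08e-05 and 2.36e-05. let-7b-5p (-2.52 ± 0.17), let-7c-5p (-2.04 ± 0.15) and miR-30d-5p (-0.998 ± 0.16) were lower in neonatal libraries too.

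let-7a-5p (-0.44 ± 0.12, edgeR's adjusted p = 0.00516) was lower in neonatal libraries with TMM scaling. However, it stood at 0.20 with library totals, at 0.0299 with the GC offset and at 0.0287 with the offset and the block together, and passed with none of these. It did not pass either without a filter on low counts (adjusted p = 0.0668), without adult library 3 (0.0511) and without neonatal library 2 (0.0632). let-7 miRNAs are close in sequence, so their reads are not fully separated. Neither miR-98-5p, at 0.25 ± 0.16, nor miR-25-3p, at 0.16 ± 0.12, passed edgeR's test (adjusted p = 0.177 and 0.258). Both passed as higher with library totals, at 0.88 and 0.79. miR-98-5p also did with the GC offset (0.70), with the GC offset and the block together (0.70) and without adult library 2 (0.40). miR-25-3p did with RLE scaling (0.28), with DESeq2 (0.28) and with the GC offset and the block together (0.24). The 6 listed miRNAs that were not tested had at most 10 counts in any library. They were miR-214-3p, miR-144-3p, miR-138-5p and miR-124-3p, and miR-217-5p and miR-137-3p without any count.

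miR-101a-3p is low in GC content, and tested miRNAs of like GC content were more often lower than higher with TMM scaling. Of 47 other tested miRNAs whose mature GC content lay within 5 points of its own, 21 were lower and 9 higher, with a median of -0.51, beside 34.1% lower and 29.1% higher among all tested. Their fold changes ran from -3.90 to 2.25, and 2 of the 47 were at or below that of miR-101a-3p. With library totals 10 were lower and 17 higher, beside 68 lower and 186 higher among all 375 tested. With the GC offset 16 were lower and 14 higher, beside 125 lower and 117 higher among all 375. With the GC offset, miR-101a-3p stood at -3.09 ± 0.23 (SE) and miR-101b-3p at -0.69 ± 0.20, and the part of GC content in these values was not tested further.

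The miRNAs whose log2 CPM over the 8 libraries most resembled that of miR-101a-3p, among 158 with at least 100 CPM on average, were miR-378c (r = 0.998), miR-467a-5p (0.996), miR-140-3p (0.996), miR-1843a-5p (0.995) and miR-669a-5p (0.995). All 5 were lower in neonatal libraries, at log2 fold changes of -1.06 (miR-140-3p) to -2.65 (miR-1843a-5p), beside 34.1% of all tested. They were named by likeness to a miRNA that is itself lower there, so their direction is no separate evidence. miR-101b-3p was only place 50 in the order of likeness (r = 0.907). For miR-101b-3p the nearest were miR-27b-3p (0.986), miR-3068-5p (0.983), miR-140-5p (0.976), miR-142a-3p (0.976) and miR-203-3p (0.975). Such values are set largely by the split between the ages, which the libraries share.

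With the group means taken away, the nearest to miR-101a-3p were miR-20a-5p (r = 0.977), miR-27b-3p (0.971), miR-378c (0.964), miR-203-3p (0.947) and miR-194-5p (0.945), and miR-101b-3p was place 7. The nearest to miR-101b-3p were miR-378a-3p (0.989), let-7g-5p (0.988), miR-378c (0.986), miR-1839-5p (0.986) and miR-192-5p (0.980). These likenesses within an age held for miRNAs with quite different age differences. miR-20a-5p (0.06 ± 0.22 SE), miR-1839-5p (-0.05 ± 0.16) and miR-192-5p (-0.23 ± 0.24) did not pass edgeR's test for age, at adjusted p of 0.808, 0.808 and 0.408. With library totals miR-20a-5p (0.68) and miR-1839-5p (0.58) passed as higher. Both also did with the GC offset (0.49 and 0.31) and with the offset and the block together (0.47 and 0.31).

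No miRNA marks CD8+ T cells alone, and the labelled cell type was set against blood cell and lymphocyte miRNAs. All 5 of these were abundant in every library, with 3425 counts of miR-142a-3p as the lowest value. Summed, they came to 72937 to 75700 CPM per neonatal library against 143488 to 210073 CPM per adult library. Most of this sum was miR-150-5p, at 97410 CPM on average over all libraries, against 9828 CPM for miR-181a-5p, the next of them. miR-150-5p (-1.37 ± 0.18), miR-142a-5p (-1.66 ± 0.30), miR-142a-3p (-1.34 ± 0.33) and miR-342-3p (-0.72 ± 0.20) were lower in neonatal libraries. miR-181a-5p (0.21 ± 0.14) did not pass edgeR's test (adjusted p = 0.193). With library totals miR-142a-3p (adjusted p = 0.0531) and miR-342-3p (0.706) lost their calls, as did miR-142a-3p without a filter on low counts (0.0553). miR-181a-5p passed as higher with library totals (0.84), RLE scaling (0.32), DESeq2 (0.32) and the GC offset without (0.37) and with (0.36) the block.

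miRNAs of other cells were set beside the background of 29.1% higher and 34.1% lower among all tested, and of the calls made with library totals a larger share was higher, as given above. The sum of 5 erythroid miRNAs was 308 to 775 CPM per neonatal library against 120 to 252 CPM per adult one, and all 3 that were tested were higher. The same held for both endothelial miRNAs (sum of 125 to 160 against 46.6 to 77.0 CPM), the 3 tested of 4 stromal ones (113 to 165 against 34.2 to 82.6 CPM) and the liver miRNA miR-122-5p (745 to 1591 against 245 to 390 CPM). These markers are not all separate. The erythroid miR-486a-5p and miR-486b-5p had nearly equal log2 fold changes (1.84 and 1.82), and whether they share reads was not tested. Both endothelial miRNAs, miR-126a-3p and miR-126a-5p, are strands of the same hairpin. Of 5 epithelial miRNAs 2 were lower and none higher (1851 to 2157 against 2662 to 2932 CPM), a share near that of all tested miRNAs. Neither of the 2 myeloid miRNAs had enough counts for a test (3.49 to 8.54 against 2.85 to 9.10 CPM). None of these markers was at 0 in all libraries of a group, and their part in the levels of the members was not tested.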

How the data were processed

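Estimated counts, which the authors deposited without normalization, give each mature miRNA once for every precursor. The submitters' processing notes name mm10 as the build. Neither an aligner nor a counter or annotation is named (not given in the sources used here). Whole numbers, within 0.001, made up 71.4% of the deposited values above 0. Values were summed over precursors and rounded to whole numbers. The test was the quasi-likelihood F test of edgeR 4.0.16, run in R 4.3.3 (robust dispersions, TMM scaling, age group as the only term) after filterByExpr (minimum count 10, minimum total 15), with Benjamini-Hochberg adjustment over all 375 miRNAs. The biological coefficient of variation was 21.4%. The fit was tested on simulated data. Each SE was the size of the log2 fold change divided by the root of F.

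The members, lists and rules for naming miRNAs were chosen with earlier results of these data known. Named miRNAs are both members, their 5p strands, seed relatives, the 3 neighbours on each side in the order of fold changes (2 were left below miR-101a-3p), the 5 most alike at 100 CPM or more, the Ezh2 list and marker miRNAs, most of these by class. GC content was known for 314 of the 375 tested miRNAs (83.7%), and the others took the median in the GC offset, a lowess fit per library. Other alternatives were RLE scaling, library totals, other filters, DESeq2 1.42.0, leaving out the 10 most abundant miRNAs or 1 library, and the replicate number as a block. Same-numbered neonatal and adult libraries deviated from their group means together (r = 0.256 to 0.415 over miRNAs, each of the 4 pairs above 0.1). On this check alone, the numbers were treated as pairs. Unlike-numbered ones reached 0.482.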

Additional observations from a re-analysis of the deposited data

How the results depend on the processing

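Over 17 alternatives for each fold change, miR-101a-3p and miR-101b-3p moved by more than the spread between libraries with library totals alone, to -2.91 and -0.35. Without any single library they were -3.75 to -3.31 and -1.17 to -0.81. The difference between the members was -2.40 with the GC offset and -2.41 with the GC offset and replicate block, both added after seeing the data. Both are differences of fitted log2 fold changes, which came to -2.55 without offset or block, and not of the count ratios behind -2.60. They lay beyond that spread from -2.60, but part of this distance comes from the change of measure. For the count ratios the replicate block alone gave -2.60, as it must when both groups hold the same numbers. The count of miRNAs that changed with age was 213 to 287 over the alternatives (237 as reported, 265 with the replicate block), and that of Ezh2-linked miRNAs 4 to 7, the 4 without the 10 most abundant miRNAs, which took listed members out of the test. Both counts pool the directions. Where 7 Ezh2-linked miRNAs passed, 1 or 2 of them were higher, as with RLE scaling (6 lower, 1 higher) and library totals (5 lower, 2 higher). Among all 375 tested, 118 were lower and 123 higher with RLE scaling, and 68 lower and 186 higher with library totals. Without the GC offset, the block changed no call among the 36 named miRNAs for which it was run. With the offset, miR-25-3p passed with the block (adjusted p = 0.0398) and not without it (0.0738). The count of miRNAs of like GC content that were lower was 10 of 47 with library totals (21 as reported, 16 with the GC offset). Among all 375 tested it was 68 with library totals (128 as reported, 125 with the GC offset). It was 46, beside 20 higher and 35 not called, with a window of 10 points, which holds more miRNAs. Among 36 other named miRNAs, 552 of 606 alternative values kept direction and call, 20 lost and 16 gained a call with the same sign, and 18 changed sign, some of these with a change of call too. Signs changed for let-7a-5p (0.20 with library totals, 0.0299 with the GC offset and 0.0287 with offset and block), miR-192-5p (0.39) and miR-203-3p (0.10) with library totals. miR-1839-5p, near 0 as reported, went to 0.0636 with RLE scaling and with DESeq2, 0.58 with library totals, 0.0318 without a filter, 0.31 with the GC offset and 0.31 with offset and block, and -0.17 to 0.0601 without any single library. miR-20a-5p was -0.11 to 0.23 without any single library. The cause of these changes was not tested. The 5p strands had too few counts for a fold change or an arm ratio under the main filter, so no alternative gave a value for them.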
